A study of Mus musculus with 6 samples.

Results

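The classical cadherins and protocadherins were taken as the rows of the gene count table whose symbol was Cdh followed by a number, or began with Pcdh, with at least 10 counts summed over the 6 libraries. The rule gave 58 genes out of 26195 with at least 1 count. A further matching symbol, Cdh16, had 0 counts and was left out. The members comprised 22 Cdh genes, 12 non-clustered protocadherins and 24 rows of the clustered Pcdha, Pcdhb and Pcdhg families. Of the 58 members, 55 passed the filter on low counts and were tested, and Cdh26, Cdh17 and Pcdhb1 did not pass it.

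The libraries came from the cerebellum of 6 C57BL/6 mice aged 6 days. There were 3 wild type animals and 3 SnoN conditional knockout (SnoN cKO) animals, with 1 library of total RNA per animal, read as single-end sequence. SnoN, the product of Skil, is a co-regulator of transcription that binds Smad proteins of the TGF-beta pathway. The comparison addresses what differs in cerebellar RNA when SnoN is deleted. The sources used here do not give the Cre driver or the deleted exons, so the cells in which the gene was removed are unknown. In bulk tissue, fewer cells of a type and less RNA per cell cannot be told apart.

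Total counts ran from 12605870 to 17757711 per library. Skil had 89.5, 87.5 and 88.9 CPM (read counts scaled to a common library total) in wild type 1, 2 and 3, and 76.0, 74.7 and 77.5 CPM in SnoN cKO 1, 2 and 3, without overlap, and its log2 fold change was -0.22 (SE 0.042). Whether the reads lie within the deleted exons could not be checked. Markers of granule neurons and Purkinje cells were present in every library, summing to 2838 to 3308 CPM and 1886 to 2213 CPM. In choroid plexus markers SnoN cKO 2 stood apart, with a sum of 8 markers of 47.4 CPM against 1789 to 3448 CPM in the other libraries. Most of the sum in the other libraries was Ttr, at 1641 to 3209 CPM, against 17.3 CPM in SnoN cKO 2. The markers did not differ to the same degree, with Otx2 at 22.0 CPM in SnoN cKO 2 and 46.2 to 56.1 CPM elsewhere. By a chi-square on the counts of the genes tested, SnoN cKO 3 differed most from the rest. Chi-square divided by its degrees of freedom was 31.5 to 57.0 in pairs with SnoN cKO 3, and 2.70 to 19.7 in the other pairs. This measure grows with read depth and gives most weight to genes with high counts, and SnoN cKO 3 had the highest total, 17757711. The libraries labelled SnoN cKO 1 (female) and SnoN cKO 2 (male) went against their sex labels, with Xist at 2.74 and 2536 CPM and Ddx3y at 89.8 and 0 CPM. The other labels matched, with Xist at 2607 CPM in wild type 1 (female). It was at 2.52, 2.65 and 3.28 CPM in wild type 2, wild type 3 and SnoN cKO 3 (male). Whether the sex labels or the libraries themselves were exchanged is unknown from these files, so the animal behind each value given for SnoN cKO 1 or SnoN cKO 2 is uncertain, and names follow the labels. Both carry the same genotype label, so an exchange between them would not alter the comparison of genotypes without covariates or blocks. Medians and log2 fold changes are also given without both libraries. That fit sets SnoN cKO 3 alone against wild type, so its values describe that library only.

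Cadherins are single-pass membrane proteins whose extracellular repeats bind calcium and join cells of like type. The classical cadherins, of type I and type II, hold the actin cytoskeleton through catenins bound to their cytoplasmic tails. Protocadherins lack that catenin-binding tail. The non-clustered protocadherins are encoded by scattered genes, and many act in axon growth and in the sorting of neurons. The clustered ones are expressed in combinations that differ from neuron to neuron and serve in self-recognition of neurites, with promoter choice in the clusters relying on CTCF and cohesin.

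No member passed the adjusted threshold in the genotype comparison. Adjusted p-values from edgeR's quasi-likelihood test, corrected by Benjamini-Hochberg over all 15457 genes tested, ran from 0.637 to 0.988 over the members. The same test called 0 of 15457 genes (0.0%), so nothing in the comparison below is a called change. At an unadjusted p under 0.05, 8 of the 55 members were lower in SnoN cKO, where 4.47% of all genes tested were, and 4 members were higher, where 3.21% of all genes were. By limma-voom 8 members were lower and 3 higher at that level. By DESeq2 3 were lower and 0 higher, and neither tool called a member after adjustment. Leaving out wild type 2 took the edgeR counts to 1 lower and 1 higher, leaving out SnoN cKO 1 to 4 and 2, and leaving out SnoN cKO 2 to 4 and 0. The higher count was also 2 without wild type 1 and 1 without wild type 3. The ranges of the 2 genotypes were separate in 9 members lower in SnoN cKO, against a background of 6.73% of genes, and in 5 members higher, against 6.95%. With library totals in place of TMM scaling, the latter counts became 8 and 1. The shares of all genes under these other tools, fits and scaling are not given here. The shifts in the counts therefore cannot be read as particular to the members.

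The 3 families are described by their counts and medians. Of the 12 non-clustered protocadherins, 6 were lower at the unadjusted level and 1 was higher, and the median log2 fold change was -0.14. Of the 20 Cdh genes tested, 1 was lower and 2 were higher, with a median of -0.055. Of the 23 clustered rows tested, 1 was lower and 1 was higher, with a median of -0.013. At the unadjusted level 4.47% of all genes tested were lower and 3.21% were higher, and the median of all genes tested was -0.002. The fit without SnoN cKO 1 and 2 rests on SnoN cKO 3 as the only knockout library. Its medians were -0.13 for non-clustered, -0.007 for Cdh and -0.13 for clustered genes. In that fit the clustered and non-clustered medians were alike. Leaving out 1 library at a time moved the clustered median between -0.036 and 0.036, above 0 where SnoN cKO 2, SnoN cKO 3 or wild type 1 was left out. The difference between the families was not tested.

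Some markers of cell types also passed the unadjusted level, and no gene passed after adjustment. Of all genes tested, 4.47% were lower and 3.21% higher at the unadjusted level, and 51.0% were below 0. Of 8 granule neuron markers, 7 had positive log2 fold changes (median 0.11) and 2 were higher, and of 8 Purkinje cell markers 7 were positive (median 0.077) and 2 were higher. All 8 meninges markers were below 0 (median -0.12), and 2 were lower. Of 8 markers of the oligodendrocyte lineage, 6 were below 0 (median -0.049) and 1, the myelin gene Mog, was lower, at -0.61. Their part in the counts of cadherins and protocadherins was not tested.

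**Figure D1:**
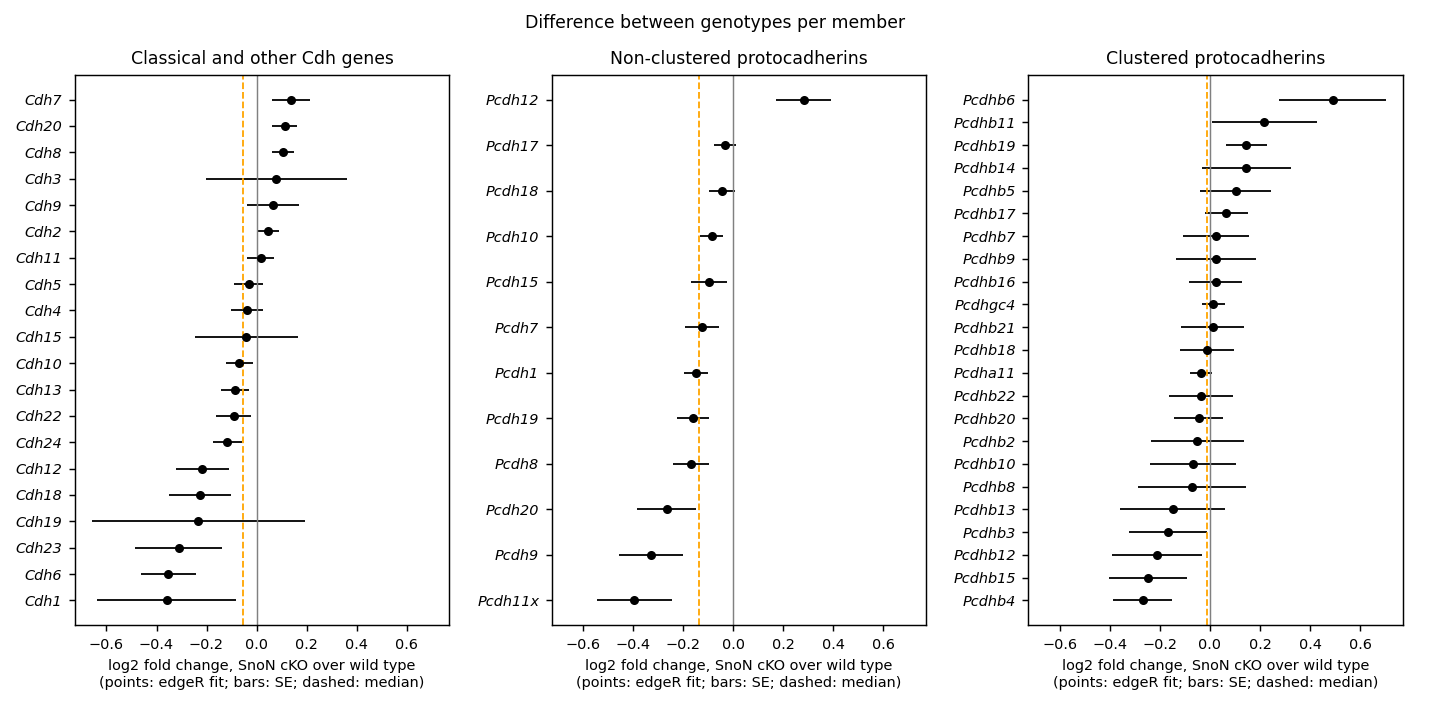
Log2 fold change of SnoN cKO over wild type (x axis) for each of the 55 tested members, in 3 panels by family, with points from the edgeR fit, bars for the SE and a dashed line at the median of each family. Of the 12 non-clustered protocadherins, 11 lie below 0, where 51.0% of all genes tested do. The clustered rows lie on both sides of 0 in this fit of all 6 libraries.

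**Figure D2:**
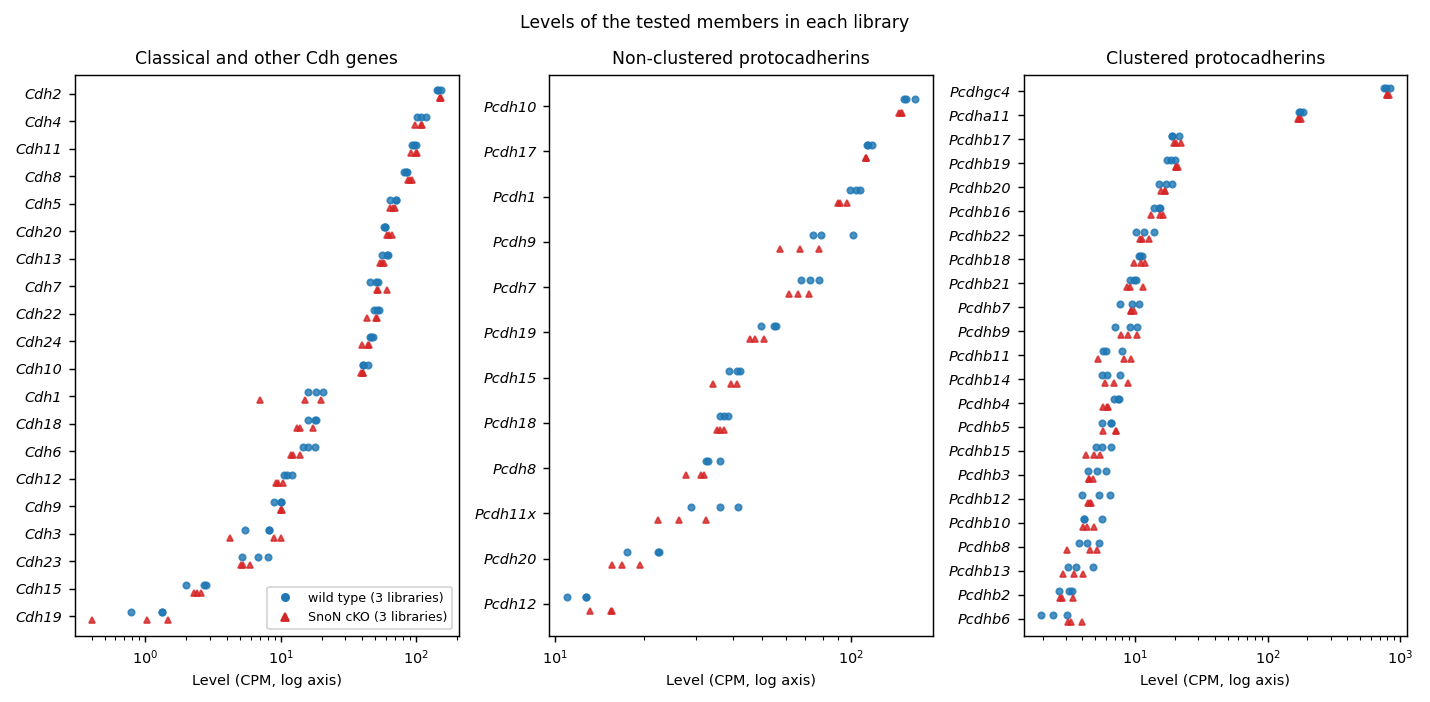
Level of each tested member in each library in CPM (x axis, log scale), with blue circles for the 3 wild type and red triangles for the 3 SnoN cKO libraries. The libraries of the genotypes lie close together for most members. The library to library spread is widest for Cdh19. It is also wide for Cdh1, Cdh3, Pcdh9, Pcdh11x and several beta rows, Pcdhb11 among them.

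Among the type I cadherins, 5 of 5 were measured and none had an unadjusted p under 0.05. N-cadherin, Cdh2, the main classical cadherin of neural tissue, had 142, 146 and 153 CPM in wild type and 151, 153 and 151 CPM in SnoN cKO. The groups overlapped, and the log2 fold change was 0.047 (SE 0.044), running from 0.022 to 0.077 when 1 library was left out. R-cadherin, Cdh4, had 108, 102 and 117 CPM in wild type and 111, 109 and 98.4 CPM in SnoN cKO, with the lowest value in SnoN cKO 3 and overlap between the groups. E-cadherin, Cdh1, the epithelial cadherin, had 20.3, 18.3 and 15.9 CPM in wild type and 7.05, 14.96 and 19.9 CPM in SnoN cKO. One library, SnoN cKO 1, was far below the rest, and the log2 fold change of Cdh1 was -0.36 (SE 0.28), or -0.057 without that library. The sum of 8 meninges markers was lowest in the same library, at 858 CPM against 933 to 1139 CPM in the other 5, and its part in the result was not tested.

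P-cadherin, Cdh3, another epithelial cadherin, had 8.14, 8.24 and 5.46 CPM in wild type and 10.03, 4.20 and 8.97 CPM in SnoN cKO. Its lowest library was SnoN cKO 2, which was followed by wild type 3. The choroid plexus marker sum was also lowest in those libraries, at 47.4 and 1789 CPM, and its part in the result was not tested. Muscle cadherin, Cdh15, which cerebellar granule cells also express, was low, with 2.82, 1.99 and 2.73 CPM in wild type and 2.58, 2.30 and 2.40 CPM in SnoN cKO, and overlapped. The directions of Cdh4, Cdh3 and Cdh15 each turned on leaving out a single library.

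The type II cadherins mark subsets of neurons and other cells and sort them by differential adhesion. Of the 13 tested, 1 was lower and 2 were higher at the unadjusted level, beside 4.47% and 3.21% of all genes. Cdh6, known from the developing brain and kidney, had 14.6, 17.9 and 16.0 CPM in wild type and 13.9, 11.9 and 12.3 CPM in SnoN cKO. All SnoN cKO libraries were below all wild type libraries, and the means were 16.2 ± 1.63 (SD, n = 3) and 12.697 ± 1.03 CPM (SD, n = 3). The log2 fold change of Cdh6 was -0.35 (SE 0.11), with an unadjusted p of 0.00888, the smallest of any member, and an adjusted p of 0.637. The value ran from -0.42 to -0.27 over the fits that left out 1 library, and was -0.40 without SnoN cKO 1 and 2. Without wild type 2 its unadjusted p was 0.0507.

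Cdh8, a neuronal type II cadherin, had 84.7, 81.3 and 85.0 CPM in wild type and 92.7, 90.3 and 87.1 CPM in SnoN cKO. The SnoN cKO libraries were all higher, and the log2 fold change was 0.11 (SE 0.045). Cdh20 had 58.0, 58.4 and 59.2 CPM in wild type and 62.6, 66.7 and 60.6 CPM in SnoN cKO. These groups did not overlap either, with a log2 fold change of 0.11 (SE 0.050). The 6 libraries ranked in the same order for Cdh20 as for the sum of 8 Bergmann glia and astrocyte markers, which was 3756, 3779 and 3781 CPM in wild type and 3942, 4232 and 3914 CPM in SnoN cKO. Of these 8 markers 5 were higher at the unadjusted level, but Slc1a2 and Gja1 were lower, at -0.16 and -0.25, beside 3.21% and 4.47% of all genes. The part of the list in the result was not tested. Without SnoN cKO 1 and 2, the log2 fold changes fell to 0.058 for Cdh8 and 0.049 for Cdh20. Without SnoN cKO 2 alone, the value for Cdh20 was 0.073.

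VE-cadherin, Cdh5, the adhesion molecule of endothelial junctions, had 70.7, 63.8 and 71.2 CPM in wild type and 64.0, 69.3 and 67.7 CPM in SnoN cKO, with overlap. Cdh11, found in mesenchymal cells and in some neurons, had 96.9, 99.9 and 92.6 CPM in wild type and 91.6, 102 and 99.5 CPM in SnoN cKO, also with overlap and a direction that turned on leaving out wild type 3 or SnoN cKO 2. The other type II genes were chosen for mention after their values were seen. Of the 13 type II genes, 4 were lower and 2 higher without overlap of the groups, beside 6.73% and 6.95% of all genes tested. Cdh24, Cdh10 and Cdh12 were below wild type in all SnoN cKO libraries, at log2 fold changes of -0.12, -0.068 and -0.22. Their unadjusted p-values were 0.0735, 0.227 and 0.0672. Cdh7, Cdh22, Cdh18, Cdh9 and Cdh19 had overlapping groups.

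Of the 4 atypical cadherins, Cdh13 and Cdh23 were tested. T-cadherin, Cdh13, is held to the membrane by a lipid anchor and had 61.7, 60.4 and 55.4 CPM in wild type and 55.8, 53.8 and 57.6 CPM in SnoN cKO. Cdh23, which forms the tip links of hair cells with Pcdh15, had 6.81, 8.10 and 5.14 CPM in wild type and 5.25, 5.96 and 5.04 CPM in SnoN cKO. The groups overlapped for both, and the log2 fold changes were -0.087 (SE 0.056) and -0.31 (SE 0.17). Without 1 library, Cdh13 was -0.056 (wild type 1) or -0.13 (wild type 3), and Cdh23 was -0.14 (wild type 2) or -0.465 (wild type 3). Cdh26 and Cdh17 stayed between 0 and 0.645 CPM in every library.

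Non-clustered protocadherins were the family with most members past the unadjusted level. All 12 were tested, and 11 had a negative log2 fold change, where 51.0% of all genes tested did. The 6 lower ones were Pcdh1, Pcdh9, Pcdh11x, Pcdh8, Pcdh19 and Pcdh20, beside 4.47% of all genes tested. The groups did not overlap in 4 lower members and 1 higher member, beside 6.73% and 6.95% of all genes. Without wild type 2, the 6 became 1, and without SnoN cKO 1 or SnoN cKO 2 they became 3. The shares of all genes in those fits are not given here. In every fit run, 11 of 12 values stayed negative.

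To show the regulatory sequence of these genes, the 250 bases before the annotated start were read from RefSeq (GRCm38.p6) for 4 of the 6 lower members, printed 5′ to 3′ along the gene. Pcdh1 and Pcdh11x are not shown, so the 4 windows do not describe all 6 members. Where a gene had several annotated starts, only the first listed was read. Capitals mark the core Smad-binding motif, CAGAC, or its complement on the other strand, GTCTG, which were searched because SnoN acts through Smad proteins. The motif is short, and 42.2% of 32851 RefSeq promoter windows of this length hold at least 1 copy. Pcdh9 lies at chr14:93890680-93890929, Pcdh19 at chrX:133688994-133689243, Pcdh8 at chr14:79771313-79771562 and Pcdh20 at chr14:88471397-88471646, all on the minus strand.
Pcdh9: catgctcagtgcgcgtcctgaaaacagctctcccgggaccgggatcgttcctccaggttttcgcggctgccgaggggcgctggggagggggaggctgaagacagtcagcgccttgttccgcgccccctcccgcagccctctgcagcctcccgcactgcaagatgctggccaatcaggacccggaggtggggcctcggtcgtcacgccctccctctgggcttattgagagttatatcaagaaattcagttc
Pcdh19: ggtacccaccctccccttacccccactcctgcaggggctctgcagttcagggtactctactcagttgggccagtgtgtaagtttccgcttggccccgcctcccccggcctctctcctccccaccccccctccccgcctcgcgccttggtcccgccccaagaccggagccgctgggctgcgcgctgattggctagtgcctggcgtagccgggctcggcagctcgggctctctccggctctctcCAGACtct
Pcdh8: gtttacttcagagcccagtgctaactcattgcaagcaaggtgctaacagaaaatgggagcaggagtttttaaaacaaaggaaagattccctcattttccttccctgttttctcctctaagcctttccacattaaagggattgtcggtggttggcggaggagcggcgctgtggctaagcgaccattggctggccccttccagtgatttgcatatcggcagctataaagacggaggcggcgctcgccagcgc
Pcdh20: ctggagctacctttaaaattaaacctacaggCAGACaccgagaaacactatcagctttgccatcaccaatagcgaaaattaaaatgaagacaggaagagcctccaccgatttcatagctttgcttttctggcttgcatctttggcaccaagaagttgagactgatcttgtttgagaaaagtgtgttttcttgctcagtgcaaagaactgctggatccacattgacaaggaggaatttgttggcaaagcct

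The Pcdh19 window held 1 copy, which began 8 bases before the start site, and the Pcdh20 window held 1 copy, 219 bases before it. The Pcdh9 and Pcdh8 windows held none. A match is a description of the letters and not of a bound site.

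The delta1 protocadherins are Pcdh1, Pcdh7, Pcdh9 and Pcdh11x, which share a long cytoplasmic tail that can bind protein phosphatase 1. All 4 lay below 0, the median being -0.24, and 3 were lower at the unadjusted level. Of all genes tested, 51.0% lay below 0 and 4.47% were lower. Pcdh1 had 103, 99.1 and 107 CPM in wild type and 97.0, 90.1 and 91.6 CPM in SnoN cKO. Every SnoN cKO library was below every wild type library, the means were 103 ± 3.74 and 92.9 ± 3.59 CPM (SD, n = 3 each), and the log2 fold change was -0.15 (SE 0.049). Its unadjusted p by edgeR was 0.0126, and it stayed under 0.05 in each fit that left out 1 library. Without SnoN cKO 1 and 2 the log2 fold change of Pcdh1 was -0.17. Pcdh7 had 77.9, 72.5 and 67.5 CPM in wild type and 66.3, 61.8 and 71.9 CPM in SnoN cKO, with overlap through SnoN cKO 3 and a log2 fold change of -0.12 (SE 0.069). That value was -0.071 without wild type 1 or SnoN cKO 2, and -0.017 without SnoN cKO 1 and 2.

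Pcdh9, expressed in many developing neurons, had 78.8, 101 and 74.4 CPM in wild type and 67.0, 57.3 and 78.1 CPM in SnoN cKO. Its highest library was wild type 2 and its lowest SnoN cKO 2, and SnoN cKO 3 lay above wild type 3. Pcdh11x, the X-linked member, had 36.1, 41.6 and 28.8 CPM in wild type and 26.2, 22.3 and 32.4 CPM in SnoN cKO, with the same high and low libraries. The log2 fold changes were -0.33 (SE 0.13) for Pcdh9 and -0.40 (SE 0.15) for Pcdh11x, the latter being the most negative of the members. These 2 genes also varied within a genotype beyond counting error, with a coefficient of variation of 16.4% and 18.6% where counting alone would give 3.11% and 4.89%.

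Pcdh9 and Pcdh11x ranked the 6 libraries in the same order as the summed level of 10 brainstem and midbrain markers. That sum was 61.4, 74.3 and 54.1 CPM in wild type and 45.03, 38.9 and 60.3 CPM in SnoN cKO. Of the 10 markers, 8 were tested, all 8 were below 0 (median log2 fold change -1.09), and 4 were lower at the unadjusted level. Of all genes tested, 51.0% were below 0 and 4.47% were lower. Most of the sum was Slc6a5, the glycine transporter of inhibitory neurons, at 34.4 to 54.1 CPM. The Hox genes in the list, which pattern the hindbrain, were each under 3 CPM, with Hoxa5 and Hoxb3 at 0 in SnoN cKO 2 and Hoxb5 at 0 in SnoN cKO 1. The sum of 8 oligodendrocyte lineage markers had the same 2 lowest libraries and the same highest one, at 1318, 1373 and 1312 CPM in wild type and 1287, 1136 and 1345 CPM in SnoN cKO. The brainstem list was drawn up with earlier results of these libraries known, so its direction is not independent, and the part of either list in the result was not tested. Among the other members, Pcdha11 ranked the libraries as the oligodendrocyte sum did, and Pcdhb17 as the Purkinje sum did. Without wild type 2 the log2 fold changes were -0.18 for Pcdh9 and -0.26 for Pcdh11x, and without SnoN cKO 1 and 2 they were -0.12 and -0.14.

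**Figure D3:**
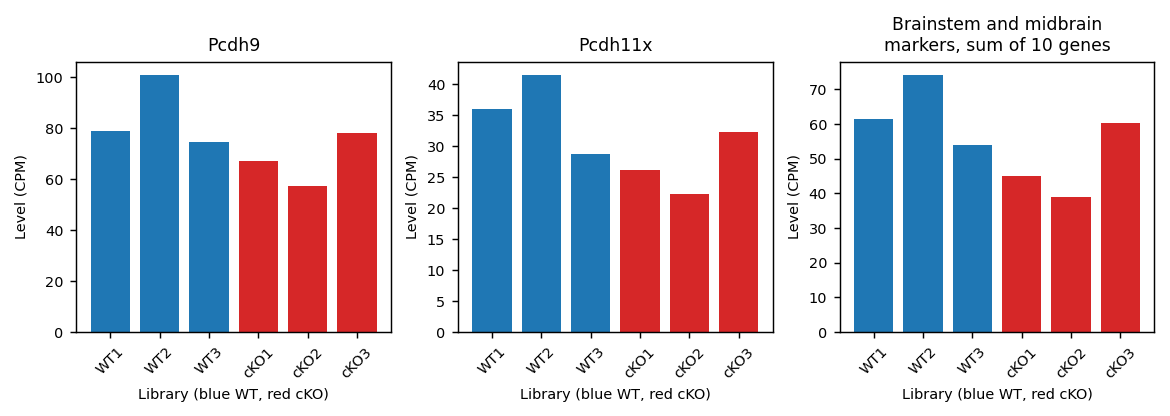
Level in CPM (y axis, from 0) of Pcdh9, of Pcdh11x and of the summed 10 brainstem and midbrain markers, with 1 bar per library, blue for wild type and red for SnoN cKO. In each panel wild type 2 is the highest bar and SnoN cKO 2 the lowest.

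The delta2 protocadherins, Pcdh8, Pcdh10, Pcdh17, Pcdh18 and Pcdh19, carry a tail that can recruit the WAVE complex, a regulator of actin. All 5 lay below 0, the median being -0.087, and 2 were lower at the unadjusted level, beside 51.0% and 4.47% of all genes tested. Pcdh19, the X-linked gene linked to epilepsy in people, had 55.9, 54.8 and 49.6 CPM in wild type and 50.6, 45.4 and 47.3 CPM in SnoN cKO. The groups met only where SnoN cKO 1 lay above wild type 3, and the log2 fold change was -0.16 (SE 0.064). Pcdh8, an activity-regulated protocadherin of synapses, had 32.5, 36.2 and 32.9 CPM in wild type and 31.8, 31.1 and 27.8 CPM in SnoN cKO. Its groups did not overlap, and the log2 fold change was -0.17 (SE 0.071). That of Pcdh8 was -0.11 without wild type 2, -0.10 without SnoN cKO 3 and -0.29 without SnoN cKO 1 and 2.

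Pcdh10, which acts in axon growth, had 150.2, 164 and 153 CPM in wild type and 148, 145 and 147 CPM in SnoN cKO. All SnoN cKO libraries were lower, and the log2 fold change was -0.087 (SE 0.046), or -0.042 without wild type 2. Pcdh17 had 117, 114 and 113 CPM in wild type and 112, 112 and 112 CPM in SnoN cKO, a log2 fold change of -0.033 (SE 0.042), or -0.015 without wild type 1. The groups did not overlap, with an SD of 0.193 CPM (n = 3) in SnoN cKO and 2.43 CPM (n = 3) in wild type. Pcdh18, mentioned after its values were seen, overlapped, with a log2 fold change of -0.045 (SE 0.051).

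The other 3 non-clustered genes went in different directions. Pcdh20 had 17.6, 22.3 and 22.5 CPM in wild type and 15.7, 19.4 and 16.9 CPM in SnoN cKO, with overlap through wild type 1 and a log2 fold change of -0.27 (SE 0.12). Pcdh15, the tip-link partner of Cdh23, had 38.7, 42.2 and 41.2 CPM in wild type and 41.0, 39.4 and 34.1 CPM in SnoN cKO, with overlap. Its log2 fold change was -0.097 (SE 0.073), or -0.15 without SnoN cKO 1, -0.011 without SnoN cKO 3 and -0.26 without both SnoN cKO 1 and 2. Pcdh12, a protocadherin of endothelial cells, had 12.8, 12.8 and 10.99 CPM in wild type and 13.2, 15.5 and 15.7 CPM in SnoN cKO. It was the one non-clustered member with a positive value, its groups did not overlap, and the log2 fold change was 0.28 (SE 0.11), with an unadjusted p of 0.0280 by edgeR and an adjusted p of 0.637.

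The sum of 8 endothelial markers was likewise higher in all SnoN cKO libraries, at 424, 424 and 435 CPM in wild type and 441, 467 and 437 CPM in SnoN cKO. Of the 8, Tek, Tie1 and Cldn5 were higher and Flt1 was lower at the unadjusted level, beside 3.21% and 4.47% of all genes. Their part in the Pcdh12 value was not tested, and Cdh5, the other endothelial member, had a log2 fold change of -0.032 (SE 0.056). Leaving out 1 library at a time gave Pcdh12 values from 0.21 to 0.36.

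Reads of the clustered protocadherins stood in 24 rows. The alpha family appeared as the single row Pcdha11 and the gamma family as the single row Pcdhgc4. Current annotation (GENCODE M21) names 14 alpha and 22 gamma genes whose ends lie within 4 and 3 bases of each other, because the variable first exons of each cluster are spliced to shared last exons. Which isoforms these rows count is unknown from the sources used here, so neither can be read as one isoform. The beta genes, which are single-exon genes without shared exons, appeared as 22 rows, of which 21 were tested.

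The Pcdha11 row had 174, 186 and 174 CPM in wild type and 173, 170.2 and 177 CPM in SnoN cKO. The Pcdhgc4 row had 763, 790 and 835 CPM in wild type and 819, 796 and 796 CPM in SnoN cKO. The summed Pcdhb rows had 196, 177 and 175 CPM in wild type and 189, 186 and 177 CPM in SnoN cKO. Genotypes overlapped in all 3. All clustered rows together gave 1156 ± 25.04 CPM (SD, n = 3) in wild type and 1161 ± 17.3 CPM (SD, n = 3) in SnoN cKO, a difference smaller than the SD of either group. The log2 ratio of these means was 0.006, and -0.012 with library totals in place of TMM scaling. Pcdhgc4 held 69.0% of the reads of the clustered rows, a share of reads and not a level per length.

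Of the 21 beta rows tested, 11 had negative and 10 positive log2 fold changes, where 51.0% of all genes tested were negative. Pcdhb4 had 6.96, 7.37 and 7.56 CPM in wild type and 6.27, 5.75 and 6.16 CPM in SnoN cKO. All SnoN cKO libraries were lower, with a log2 fold change of -0.27 (SE 0.12). Pcdhb6 had 3.05, 2.39 and 1.95 CPM in wild type and 3.29, 3.99 and 3.11 CPM in SnoN cKO. It was higher in all SnoN cKO libraries, with a log2 fold change of 0.49 (SE 0.21), the most positive of the members. Their unadjusted p-values were 0.0447 and 0.0441, and their adjusted p by edgeR was 0.640 in both. Leaving out 1 library gave values from -0.30 to -0.23 for Pcdhb4 and from 0.35 to 0.67 for Pcdhb6.

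Pcdhb19 had 19.9, 18.6 and 17.4 CPM in wild type and 20.9, 20.4 and 20.5 CPM in SnoN cKO, without overlap and with a log2 fold change of 0.15 (SE 0.082). Pcdhb17 had 18.9, 19.1 and 21.3 CPM in wild type and 20.4, 22.1 and 19.5 CPM in SnoN cKO. Pcdhb20 had 18.9, 15.3 and 17.1 CPM in wild type and 15.8, 16.9 and 16.9 CPM in SnoN cKO. Both of the latter overlapped. The beta genes are close copies of each other, and how reads shared between copies were counted is not given in the sources used here, so the split between rows is uncertain.

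Within the beta cluster the reads were unevenly divided. The rows Pcdhb17, Pcdhb19, Pcdhb20 and Pcdhb16 together held 39.1% of the summed Pcdhb level. The 7 rows Pcdhb16 to Pcdhb22, at one end of the cluster, held 54.9%, 57.0% and 57.5% of it in wild type and 57.2%, 56.6% and 57.8% in SnoN cKO. The 15 rows Pcdhb1 to Pcdhb15 held the rest, 42.2% to 45.1%. Per kilobase of exon, the median level was 2.75 CPM per kb (range 1.79 to 4.72) for the former and 1.58 CPM per kb (range 0.046 to 2.92) for the latter. The boundary was chosen after the values were seen, and the genotypes overlapped in these shares. Pcdhb1 had between 0 and 4 reads in each library.

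**Figure D4:**
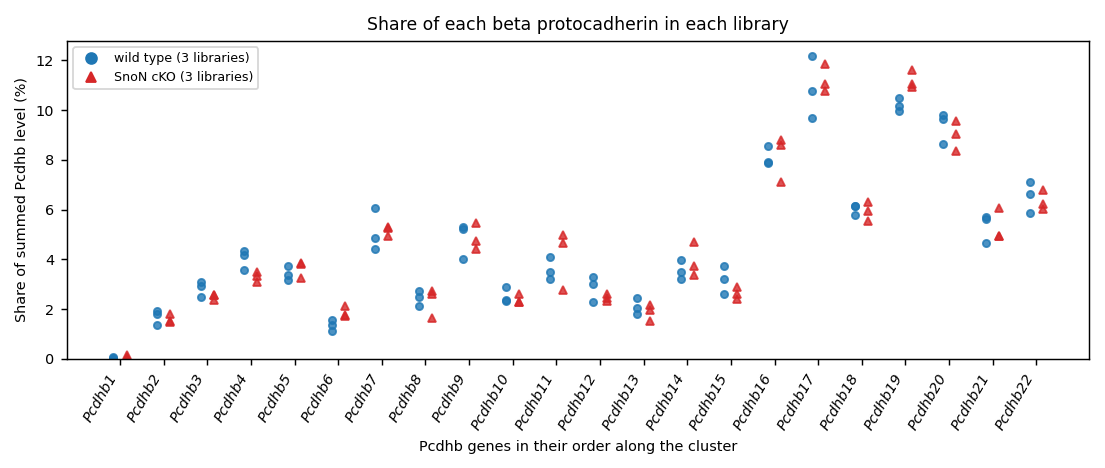
Share of the summed Pcdhb level in percent (y axis, from 0) held by each of the 22 beta genes in their order along the cluster (x axis), with blue circles for the 3 wild type and red triangles for the 3 SnoN cKO libraries. The mean share of each genotype is higher for each of Pcdhb16 to Pcdhb22 than for any of Pcdhb1 to Pcdhb15, although Pcdhb21 lies below Pcdhb7 in some libraries.

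Levels of different members can be compared only per length. Cdh2 led, at 18.2 ± 0.695 CPM per kb (SD, n = 3) in wild type and 18.8 ± 0.125 CPM per kb (SD, n = 3) in SnoN cKO. Cdh5 followed at 16.3 ± 0.980 and 15.9 ± 0.648 CPM per kb, Cdh20 at 14.6 ± 0.148 and 15.8 ± 0.780, and Cdh4 at 15.03 ± 1.07 and 14.6 ± 0.948 CPM per kb (SD, n = 3 each). In SnoN cKO, Cdh5 and Cdh20 differed by less than the SD of either. There the range of mean plus or minus SD of Cdh4 overlapped those of both. The highest non-clustered protocadherins were Pcdh9 and Pcdh1, at 11.2 and 11.1 CPM per kb over all 6 libraries, close to Cdh8 at 11.2 and Cdh11 at 10.9 CPM per kb. Pcdh10 and Pcdh17 came next at 9.52 and 8.73 CPM per kb. No per-length level was formed for the Pcdha11 and Pcdhgc4 rows.

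Within a genotype, the spread between libraries exceeded the counting error in 44 of 55 members. The median coefficient of variation was 6.71% for Cdh genes, 6.88% for non-clustered and 12.1% for clustered protocadherins, where counting alone would give 4.10%, 4% and 10.3%. In the delta1 group the median spread was 11.9% against 3.16% from counting, and in the delta2 group 3.56% against 3.76%. SnoN cKO 2 was the lowest library for 6 of the 12 non-clustered members and for 16 of all 55.

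The partners of these proteins were measured as lists of related genes. Catenins, which tie classical cadherins to actin, numbered 9 (median log2 fold change 0.019). None was lower or higher at the unadjusted level, beside 4.47% and 3.21% of all genes tested. Beta-catenin, Ctnnb1, was higher in all SnoN cKO libraries, with 1005, 1030.0 and 1001 CPM in wild type and 1030.2, 1097 and 1042 CPM in SnoN cKO, but the log2 fold change was 0.062 (SE 0.043). The neuronal catenins Ctnna2 and Ctnnd2 overlapped, at -0.074 (SE 0.055) and -0.068 (SE 0.053).

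For the factors that fold the protocadherin clusters, CTCF, cohesin and related proteins, 13 of 14 genes were tested. At the unadjusted level 0 were lower and 1 was higher, beside 4.47% and 3.21% of all genes. That gene, Mau2, a part of the cohesin loader, had 137, 136 and 140.4 CPM in wild type and 152, 151 and 145 CPM in SnoN cKO, without overlap, and a log2 fold change of 0.12 (SE 0.042). Ctcf had 192, 184 and 198 CPM in wild type and 203, 205 and 187 CPM in SnoN cKO, with overlap. Rad21, a cohesin subunit, was at 0.095 (SE 0.048).

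Among 11 genes of the WAVE complex and adhesion kinases, Ptk2b, a kinase related to focal adhesion kinase, was lower, with 3.91, 5.65 and 4.21 CPM in wild type and 3.45, 2.30 and 3.52 CPM in SnoN cKO. Its log2 fold change was -0.58 (SE 0.22), and the remaining 10, Wasf2 included, did not reach the unadjusted level. Of all genes tested, 4.47% were lower and 3.21% higher at that level.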

How the data were processed

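For 6 mouse libraries the authors deposited 1 table of unnormalised counts by gene. The tools listed are STAR 2.0.4b, featureCounts 1.4.5 and Subread, and the build is mm9, per the submitters' processing notes. Which tool served which step, and the annotation, are not given in the sources. Per the labels' protocols, the library kit does not record strand, so overlapping and antisense genes cannot be told apart.

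The identifiers in the table did not match its symbols: of 40254 rows with an identifier in GENCODE M21, 97 had the symbol of that identifier. Counts followed the symbols, since 1174 olfactory receptor rows by symbol had a median summed count of 0 and 75 ribosomal protein rows one of 3036, against 7 and 154.5 by identifier (1160 and 60 rows). Symbols alone were therefore used, and no identifier or mm9 coordinate is given. Of 41228 rows, 140 repeats of 112 symbols with the same counts (0.465% of counts) were dropped.

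Counts were tested with edgeR 4.0.16 in R 4.3.3 (filterByExpr at a minimum count of 10, TMM scaling, quasi-likelihood test of genotype, two-sided, all 6 libraries, no covariate, Benjamini-Hochberg over 15457 genes at 0.05). The biological coefficient of variation common to all genes was 9.71%. CPM are counts over the TMM-scaled total of tested genes. The SE is the log2 fold change over the root of F. Per-length levels divide CPM by the union of GENCODE M21 exons, matched by symbol, of another build than the counts. Promoter windows are RefSeq GRCm38.p6. Over the 15 library pairs, chi-square divided by its degrees of freedom was at least 2.70, so none was a repeat of another. The labels name 1 animal per library. An exact permutation test of 3 against 3 cannot go below 0.1 and was not used.

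Members and gene lists were chosen with earlier results of these data known. The text names all type I cadherins, the 3 members with the highest mean CPM and the 3 with the smallest unadjusted p in every other subgroup, Ctnnb1, Ctnna2, Ctnnd2, Ctcf and the 2 genes with the smallest unadjusted p in each partner list (1 partner list is not reported here), except where it states that a gene was chosen after its values were seen. Alternatives were DESeq2 1.42.0, limma-voom (limma 3.58.1), DESeq2 size factors in edgeR, no filter, repeats kept, labelled sex, the replicate block and leaving out libraries. Leaving out C-type isoforms was not run, because each of those clusters is 1 row.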

Additional observations from a re-analysis of the deposited data

How the results depend on the processing

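No member passed the adjusted threshold in the main test or in any alternative that kept at least 2 libraries per genotype. Of all genes, 39 passed it without the filter on low counts, 6 with DESeq2, 1 with labelled sex as a covariate and 7 without SnoN cKO 1 and 2 (chosen after seeing the data), and 0 elsewhere. Members lower at the unadjusted level numbered 8, and 3 by DESeq2. They numbered 1 to 9 when 1 library was left out, with 1 without wild type 2 and 4 without SnoN cKO 1 or SnoN cKO 2. Members higher numbered 4, and 0 by DESeq2, 2 with labelled sex, and 0 to 3 when 1 library was left out. Non-clustered protocadherins lower numbered 6, and 2 by DESeq2, and 1 to 5 when 1 library was left out. The cause of these shifts was not tested, and the shares of all genes at the unadjusted level in the same fits are not given. Members higher without overlap numbered 1 with library totals in place of TMM.

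With the replicate block, 5 members were lower, 2 were higher and 0 passed the adjusted threshold. Libraries with the same number did not deviate together (r -0.04, -0.324 and -0.183), nor did each match its own number best, so the numbers were not taken as pairs.

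The median log2 fold change ranged from -0.079 to -0.04 for Cdh genes, from -0.166 to -0.116 for non-clustered and from -0.036 to 0.036 for clustered protocadherins when 1 library was left out. Without SnoN cKO 1 and 2 the medians were -0.007 for Cdh genes, -0.13 for non-clustered and -0.126 for clustered protocadherins. Of 546 alternative values for 39 named genes, 530 had the sign of the main value, and 9 genes had a change of sign. When 1 library was left out, Cdh11 ran from -0.013 to 0.06, Cdh4 from -0.08 to 0.023, Cdh3 from -0.134 to 0.375, Cdh15 from -0.188 to 0.049, Pcdhb20 from -0.119 to 0.03, and Pcdhgc4 from -0.015 to 0.05. Without SnoN cKO 1 and 2, Cdh1 was 0.131, Pcdhb17 -0.017, Pcdhgc4 -0.001 and Ctcf -0.03. With limma-voom, Cdh3 was -0.001. Depth limits the beta rows most, since counting error alone gave a median coefficient of variation of 10.3% there.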
